A study of Homo sapiens with 9 samples.

Results

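Mitosis and the spindle checkpoint were followed through 44 genes, all of which were found in a count table of 46427 genes and passed the filter on low counts. They were chosen by name, for known roles in entry into mitosis, the checkpoint, the kinetochore, the spindle, cytokinesis and the transcription of these genes. RNA sequencing covered 3 groups of 3 libraries, all from H9, an established line of human embryonic stem cells (hESC). The first group was undifferentiated hESC. The second was control NPC (neural progenitor cells) after 11 days of differentiation towards midbrain dopaminergic neurons. That protocol used LDN193189 (200 nM) and SB431542 (10 µM) against BMP and TGF-beta receptors, purmorphamine (2 µM) to activate Hedgehog signalling and CHIR99021 (3 µM) to activate WNT signalling. The third was day 11 NPC from the same protocol that were exposed to 10 nM bafilomycin A1 (BafA1) for 6 h at a time. This drug blocks the vacuolar proton pump, so that lysosomes lose their acidity. On which days the sequenced cells were exposed is not stated in the labels. All groups come from 1 line, and the libraries of a group are called biological replicates with nothing on which cultures were handled together, so a p-value measures the spread between these libraries, which may be technical in part.

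Library totals ran from 43124679 to 69703791 counts. The labelled cell types were checked against markers. All 7 pluripotency markers were called lower in both NPC groups than in hESC, and POU5F1, TDGF1 and PRDM14 had no count in any control NPC library. LIN28A remained at 537 CPM (counts scaled by library total) in control NPC and 786 in BafA1 NPC, from 1176 in hESC. DPPA4 remained at 63.9 and 53.6 CPM, from 618. The 7 floor plate markers were called higher in both NPC groups than in hESC. Control NPC had all 7 neural progenitor markers called higher than hESC, and BafA1 NPC had 6 of 7. The summed level of this list averaged 547 CPM before differentiation, against 1194 for control NPC and 1259 for BafA1 NPC. Its member PAX6 stayed low and reached at most 1.60 CPM in any library. The summed level of 7 mesenchyme markers ran from 177 to 192 CPM in hESC, from 1630 to 2719 in control NPC and from 3086 to 3445 in BafA1 NPC, so the NPC cultures also held transcripts of that kind. Most of that sum was collagen I: COL1A1 averaged 1211 CPM in control NPC and 1963 in BafA1 NPC, and COL1A2 738 and 1099.6, while LUM went from 32.3 to 10.2, DCN from 1.73 to 0.17 and TWIST1 from 30.1 to 23.1.

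A cell enters mitosis when CDK1 bound to cyclin B is activated by CDC25 phosphatases. The spindle checkpoint then holds the anaphase-promoting complex (APC/C) inactive until every kinetochore is attached to the spindle, after which CDC20 activates the APC/C, cyclin B and securin are destroyed, and separase cuts cohesin. Most of these genes are transcribed late in the cell cycle, so in a bulk culture their level depends on how many cells are dividing. In bulk RNA, fewer cells of a type and less RNA per cell cannot be told apart here.

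Late cell-cycle promoters are known for a pair of short elements: the cell cycle genes homology region (CHR, letters TTTGAA), which the DREAM and MuvB complexes bind, and CCAAT boxes, which NF-Y binds. RefSeq promoters (GRCh38.p14, 250 bases before to 50 after the start) matched 37 of the 44 members, with 47 promoters in all. TTTGAA on either strand was present in 59.6% of these promoters, against 15.2% of all 35116 promoters of that length. CCAAT on either strand was present in 74.5% of them, against 34.6% of all. Both motifs lay within 100 bases before the start in 27.7% of the members' promoters and in 1.00% of all promoters. A match is a string of letters and not a known site, and the motifs can share letters, as they do once in MKI67. The 100 bases before the start are shown for 7 members whose changes are compared here, in lower case from 5′ to 3′ on the gene's own strand, with every TTTGAA or CCAAT match on either strand in capitals.
MKI67: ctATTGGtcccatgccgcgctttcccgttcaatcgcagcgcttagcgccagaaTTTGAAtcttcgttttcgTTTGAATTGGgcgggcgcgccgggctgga
ESPL1: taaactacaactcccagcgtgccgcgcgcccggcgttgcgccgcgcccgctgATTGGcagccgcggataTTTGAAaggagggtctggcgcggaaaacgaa
BUB1B: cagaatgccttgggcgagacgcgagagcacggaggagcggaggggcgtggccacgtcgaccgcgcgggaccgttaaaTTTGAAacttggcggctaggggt
CCNB1: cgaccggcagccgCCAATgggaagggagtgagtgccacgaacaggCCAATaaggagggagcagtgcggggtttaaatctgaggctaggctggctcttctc
CCNB2: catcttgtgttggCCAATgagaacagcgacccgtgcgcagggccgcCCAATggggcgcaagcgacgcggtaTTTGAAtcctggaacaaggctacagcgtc
PLK1: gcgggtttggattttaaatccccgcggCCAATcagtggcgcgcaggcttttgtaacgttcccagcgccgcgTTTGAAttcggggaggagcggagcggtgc
CDC20: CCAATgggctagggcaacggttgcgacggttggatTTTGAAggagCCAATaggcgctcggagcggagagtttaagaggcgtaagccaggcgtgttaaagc
The first 3 belong to genes called lower in BafA1 than in control NPC, as does CCNB1, while CCNB2 was not called and PLK1 and CDC20 were called higher. The windows lie at chr10:128126424-128126523 (minus strand) for MKI67, chr12:53268199-53268298 for ESPL1, chr15:40160969-40161068 for BUB1B, chr5:69167050-69167149 for CCNB1, chr15:59105046-59105145 for CCNB2, chr16:23678789-23678888 for PLK1 and chr1:43358881-43358980 for CDC20, the last 6 on the plus strand. CCNB1 and CCNB2, the paralogs encoding B-type cyclins, each had a pair of CCAAT boxes in this window, and only CCNB2 also had an exact TTTGAA. By their call in BafA1 against control NPC, 2 of 4 higher members, 12 of 17 lower members and 11 of 16 uncalled members had TTTGAA somewhere in a promoter. For CCAAT the counts were 4 of 4, 12 of 17 and 14 of 16.

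BafA1 NPC were compared with control NPC, the study's main comparison, for the effect of the drug. Of the 44 members, 19 were called lower and 4 higher, and 21 were not called (edgeR quasi-likelihood test, adjusted p under 0.05 over all genes tested). Among all 20685 genes tested, 20.7% were called lower and 20.8% higher. The largest falls were in ASPM, MKI67, CENPF and SPC25, which encode spindle pole, chromosome surface and kinetochore proteins. The 4 that rose were CDC25B, NEK2, PLK1 and CDC20, which encode a phosphatase and kinases of mitotic entry and the activator of the APC/C. The median log2 fold change of the members was -0.22, against 0.00 over all genes, and 36 of 44 estimates were below 0. In 23 members every BafA1 library lay below every control library and in 4 every one lay above, where 25.1% and 24.1% of all genes tested did so.

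Summed over all members, levels were 6404, 6335 and 6443 TMM-scaled CPM (CPM after edgeR's TMM scaling of libraries) in the hESC libraries, 6391, 6154 and 6446 in control NPC, and 5077, 5439 and 5121 in BafA1 NPC. The BafA1 libraries were the lowest, while hESC and control NPC overlapped. The TMM scale is relative to most other genes. With library size alone as the scale, the median of all genes in BafA1 against control NPC moved to -0.12, and 30 members were called lower (27.5% of all genes) and 2 higher (15.0%), with the calls of PLK1 and CDC20 lost. By limma on log2(FPKM + 1) the rises of NEK2 (0.28, adjusted p = 0.0704), PLK1 (0.14, adjusted p = 0.233) and CDC20 (0.14, adjusted p = 0.126) were not called, and CDC25B was the 1 member higher (8.03% of all genes), with 32 lower (16.8%). Markers of other cells moved too: 12 postmitotic neuron markers summed to between 446 and 555 CPM in control NPC and between 515 and 530 in BafA1 NPC, with 4 of 12 called higher and 1 lower. Of the 7 mesenchyme markers, 3 were called higher and 2 lower, and no marker of either list was at 0 in all libraries of either NPC group. Their part in the members' changes was not tested.

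Control NPC were compared with hESC to give the change over the differentiation itself. Here 11 members were called higher and 16 lower, against 33.0% and 31.6% of all genes tested, and 17 were not called. Those that rose included 5 genes of the centromere and kinetochore and 3 of the spindle and midzone, and PRC1, CENPF and NUF2 rose most. The largest falls were in BUB3 of the checkpoint, the transcription factor MYBL2, CDC20 and AURKB. The majority depended on the scale. With library size alone, which moved the median of all genes from 0.03 to 0.14, 16 members were higher (36.9% of all genes) and 11 lower (27.5%). With trends on GC content and transcript length removed, 8 were higher (30.3%) and 22 lower (36.6%).

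BafA1 NPC against hESC, which shares its libraries with the other comparisons, had 6 members higher and 25 lower, against 35.5% and 34.8% of all genes. NEK2 (log2 fold change 1.06 ± 0.11, SE), CDC25B (0.77 ± 0.08) and PRC1 (0.75 ± 0.09) stood highest, and BUB3 (-1.44 ± 0.09), MYBL2 (-1.22 ± 0.11), CDCA5 (-0.97 ± 0.09) and ASPM (-0.88 ± 0.10) lowest.

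**Figure D1:**
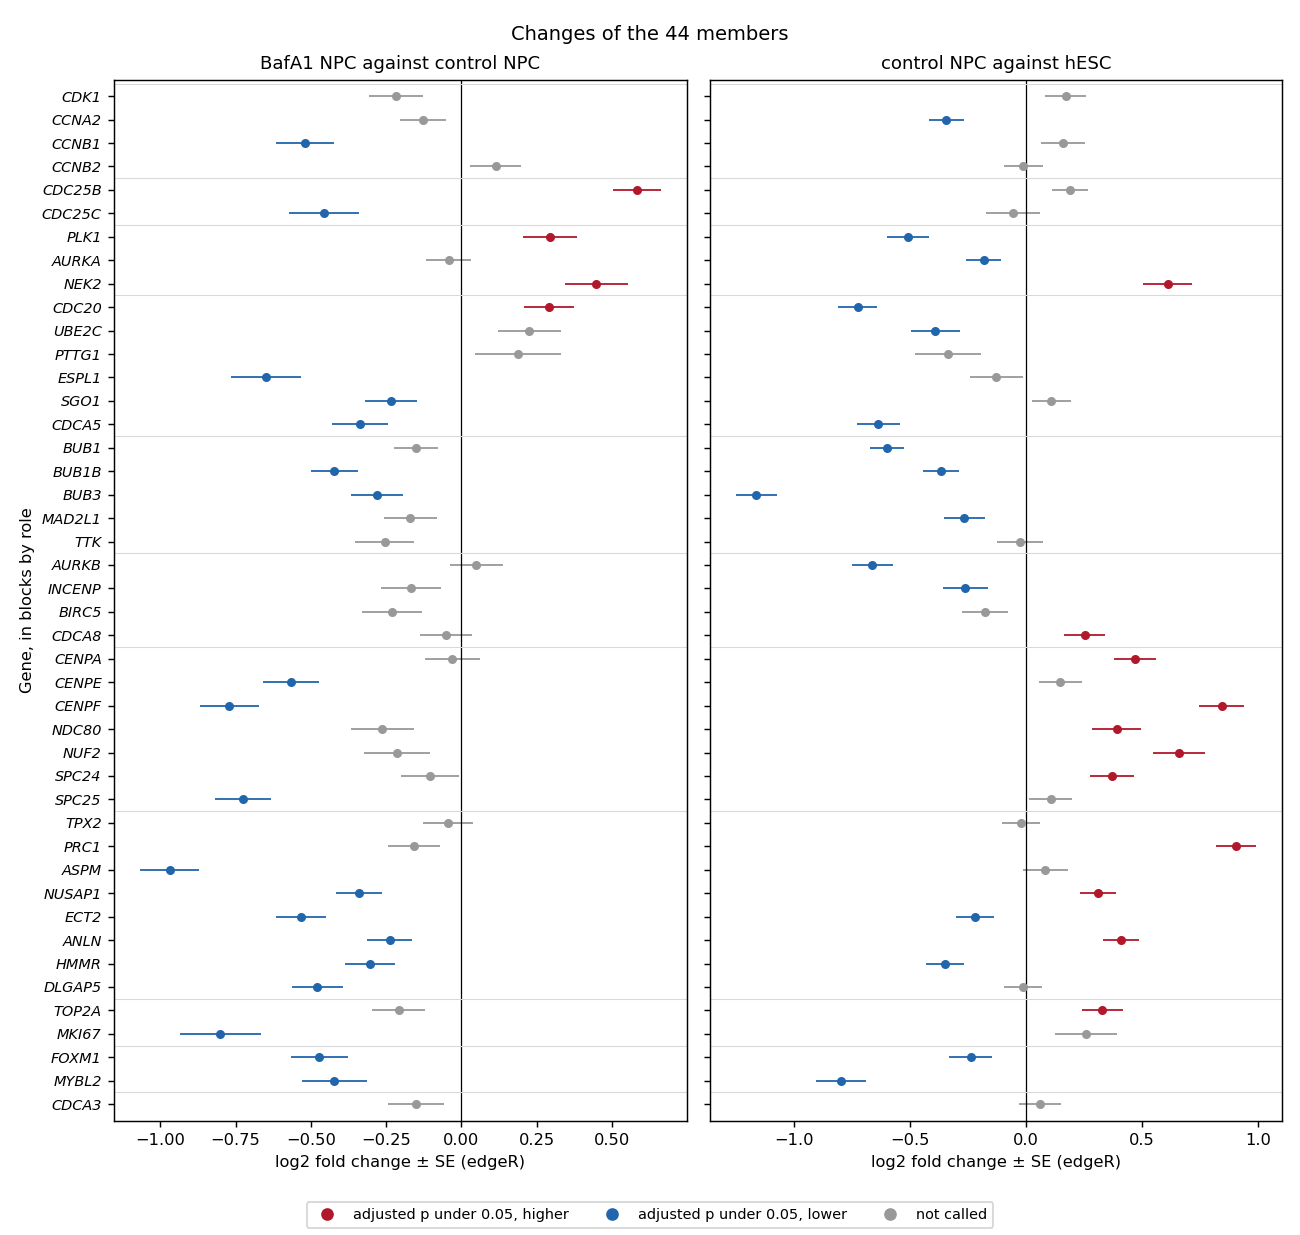
edgeR log2 fold change ± SE of each of the 44 members, in blocks by role from the cyclins at the top to CDCA3, for BafA1 NPC against control NPC (left) and control NPC against hESC (right). Red and blue points passed an adjusted p under 0.05, and grey points did not. On the left 19 points are blue and 4 red, and on the right 16 are blue and 11 red. Both panels use the control NPC libraries.

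The kinase at the centre of mitotic entry, CDK1, and its cyclins had 1 of 4 genes called lower with BafA1, CCNB1 (20.7% of all genes). Over the differentiation CCNA2 was the 1 of 4 called lower (31.6%). With GC and length trends removed, 2 of 4 were called lower with BafA1 (23.2% of all genes) and 3 of 4 over the differentiation (36.6%). CDK1 was at 135, 147 and 148 CPM in hESC, 153, 166 and 164 in control NPC and 124, 143 and 149 in BafA1 NPC. Its BafA1 libraries lay below its control libraries, but the difference was not called (log2 -0.22 ± 0.09, adjusted p = 0.0691), though it was with library size alone (-0.35) or with GC and length trends removed (-0.20). Over the differentiation the direction of CDK1 depended on the setting (0.17 ± 0.09, not called). It was called higher with library size alone (0.27, adjusted p = 0.00903) and lower with GC and length trends removed (-0.20, adjusted p = 0.0103). CCNB1, which encodes cyclin B1, was at 265, 273 and 267 CPM in hESC, 305, 297 and 296 in control NPC and 186, 238 and 202 in BafA1 NPC. It was lower in BafA1 than in control NPC by more than the spread of either group (log2 -0.52 ± 0.10, adjusted p = 0.00123), and the differentiation did not change it by a called amount (0.16 ± 0.09). With library size alone CCNB1 was called higher over the differentiation (0.26, adjusted p = 0.0194). CCNB2, which encodes cyclin B2, was at 128, 124 and 137 CPM in hESC, 125, 129 and 132 in control NPC and 130, 153 and 135 in BafA1 NPC. All 3 groups of CCNB2 overlapped, and neither comparison was called on the TMM scale. With GC and length trends removed CCNB2 was called lower over the differentiation (-0.24, adjusted p = 0.00614). CCNA2, which encodes the cyclin that acts in S phase and early mitosis, fell over the differentiation (-0.34 ± 0.08, adjusted p = 0.00191) and was not called with BafA1 (-0.13 ± 0.08). CCNA2 was called lower with BafA1 with library size alone (-0.26, adjusted p = 0.0101) and by limma on log2(FPKM + 1) (-0.27, adjusted p = 0.00668). With GC and length trends removed CCNA2 was at -0.05 with BafA1 (adjusted p = 0.573). It overlaps EXOSC9, whose counts were 45.7% of its own.

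CDC25B and CDC25C, the phosphatases that activate CDK1, moved in opposite directions with BafA1. CDC25B (chr20:3786951-3806115, GRCh38) was at 46.3, 47.5 and 50.9 CPM in hESC, 58.4, 52.8 and 53.8 in control NPC and 86.5, 78.8 and 81.6 in BafA1 NPC. Every BafA1 library lay above every other library, and the rise over control NPC was the largest of any member (log2 0.58 ± 0.08, adjusted p = 0.000177). CDC25C averaged 38.1 ± 2.19 CPM (SD, n = 3) in control NPC and 27.8 ± 5.21 in BafA1 NPC, a called fall (-0.46 ± 0.12, adjusted p = 0.00853). CDC25C overlaps FAM53C, whose counts were 262% of its own, and strand use in counting is not given, so its value is uncertain. CDC25A, the paralog that also acts at the start of S phase and was not among the members, fell too (-1.11 ± 0.11, adjusted p = 3.79e-05).

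Of the kinases PLK1, AURKA and NEK2, which drive centrosome maturation and separation, a pair was higher with BafA1 (20.8% of all genes). NEK2 was at 33.5, 32.9 and 38.5 CPM in hESC, 50.8, 51.3 and 58.2 in control NPC and 62.7, 77.6 and 78.4 in BafA1 NPC. Its groups did not overlap, and both steps were called (0.61 ± 0.11, adjusted p = 0.000302 over the differentiation, and 0.45 ± 0.11, adjusted p = 0.00544 with BafA1). PLK1 was at 157, 140 and 145 CPM in hESC, 111, 105 and 94.4 in control NPC and 126, 135 and 120 in BafA1 NPC. Control NPC were lowest and the groups did not overlap (-0.51 ± 0.09, adjusted p = 0.000316 over the differentiation, and 0.29 ± 0.09, adjusted p = 0.0198 with BafA1). The PLK1 rise was not called without control replicate 2 (adjusted p = 0.0598), control replicate 3 (0.0671) or BafA1 replicate 2 (0.0652). AURKA was at 88.6, 87.6 and 85.2 CPM in hESC, 78.5, 75.3 and 76.4 in control NPC and 71.1, 79.8 and 72.7 in BafA1 NPC. Both NPC groups of AURKA overlapped each other and lay below hESC, a difference called with adjusted p = 0.0465 (-0.18) and not with library size alone (-0.08, 0.365), with the replicate number as a block (0.0592) or without any 1 of the 6 libraries.

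The genes of CDC20, which activates the APC/C, and of UBE2C, its ubiquitin-conjugating enzyme, were lower in control NPC than in hESC. CDC20 was at 221, 209 and 206 CPM in hESC, 135, 129 and 121 in control NPC and 153, 169 and 149 in BafA1 NPC. The groups did not overlap, with control NPC lowest (-0.73 ± 0.08, adjusted p = 8.93e-06 over the differentiation, and 0.29 ± 0.08, adjusted p = 0.0142 with BafA1). The rise with BafA1 was 0.09 (adjusted p = 0.306) once GC and length trends were removed, and without control replicate 2 its adjusted p was 0.0524. The counts of a CDC20 pseudogene were 3.88% of those of CDC20. UBE2C fell over the differentiation (-0.39 ± 0.11, adjusted p = 0.006) and was at 120, 166 and 148 CPM in BafA1 NPC against 124 ± 1.06 in control NPC, which was not called (0.23 ± 0.11). PTTG1, which encodes securin, was at 103, 158 and 144 CPM in BafA1 NPC against 118 ± 14.4 in control NPC and was not called either (0.19 ± 0.14). Its hESC libraries lay above control NPC (-0.34 ± 0.14, adjusted p = 0.056), a difference called with the replicate number as a block (-0.34, adjusted p = 0.0351). Without BafA1 replicate 1, the lowest library for both, UBE2C (0.35, adjusted p = 0.00261) and PTTG1 (0.36, adjusted p = 0.0168) were called higher, which made 6 members higher in all (20.9% of all genes), against 2 without control replicate 2 (15.3%).

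Genes of separase and of the guards of cohesion were lower with BafA1. ESPL1, which encodes separase, fell from 66.3 ± 8.21 CPM in control NPC to 42.3 ± 6.28 in BafA1 NPC (-0.65 ± 0.12, adjusted p = 0.00108). CDCA5, which encodes sororin, a stabiliser of cohesin, was at 128, 119 and 120 CPM in hESC, 87.9, 77.7 and 70.5 in control NPC and 58.9, 66.4 and 61.6 in BafA1 NPC. Its groups did not overlap and both steps downward were called (-0.64 ± 0.09, adjusted p = 7.55e-05, and -0.34 ± 0.09, adjusted p = 0.0128), the second not without control replicate 1 (adjusted p = 0.0532). SGO1, which encodes shugoshin, the protector of centromeric cohesin, was called lower with BafA1 (-0.23 ± 0.09, adjusted p = 0.0459) but not with the replicate number as a block (0.0616) or with GC and length trends removed (-0.16, 0.114), nor on leaving out control replicate 1, 2 or 3 or BafA1 replicate 1 or 3. CDCA3, a ubiquitin ligase adaptor of mitotic entry, was called in no comparison on the TMM scale, at 41.9, 43.7 and 39.4 CPM on average in hESC, control NPC and BafA1 NPC.

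Every gene of the spindle checkpoint had its highest mean in hESC and its lowest in BafA1 NPC. Of the 5 genes, 4 were called lower in control NPC than in hESC (31.6% of all genes). In BafA1 against control NPC 2 were called lower (20.7%), and in BafA1 NPC against hESC all 5 were (34.8%). With GC and length trends removed, 5 were called lower over the differentiation (36.6%) and 1 with BafA1 (23.2%). BUB3 (chr10:123154402-123170467), which encodes the adaptor that brings BUB1 and BUBR1 to kinetochores, was at 292, 308 and 316 CPM in hESC, 138, 138 and 133 in control NPC and 101, 115 and 121 in BafA1 NPC. The fall over the differentiation was the largest of any member (-1.16 ± 0.09, adjusted p = 2.32e-07). Its further fall with BafA1 (-0.28 ± 0.09, adjusted p = 0.0207) was not called with GC and length trends removed (-0.15, adjusted p = 0.254), nor without control replicate 1 (0.0521), control replicate 2 (0.0729) or BafA1 replicate 1 (0.0558).

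BUB1B, which encodes BUBR1, an inhibitor of CDC20, was at 253, 232 and 248 CPM in hESC, 195, 182 and 192 in control NPC and 143, 146 and 135 in BafA1 NPC. The groups did not overlap, and both falls were called (-0.37 ± 0.08, adjusted p = 0.00132, and -0.42 ± 0.08, adjusted p = 0.00127). BUB1, a kinase that marks centromeres and recruits the checkpoint, was at 243, 243 and 235 CPM in hESC, 160, 154 and 162 in control NPC and 137, 144 and 147 in BafA1 NPC. Its fall over the differentiation was called (-0.60 ± 0.07, adjusted p = 1.66e-05), and the lower BafA1 libraries were not (-0.15 ± 0.07, adjusted p = 0.116). BUB1 was called lower with BafA1 with library size alone (-0.28, adjusted p = 0.00677) and by limma on log2(FPKM + 1) (-0.30, adjusted p = 0.00246). With GC and length trends removed its value was -0.04 (adjusted p = 0.606). MAD2L1, which encodes MAD2, the protein that sequesters CDC20, was at 118, 126 and 130 CPM in hESC, 96.4, 108 and 107 in control NPC and 87, 88.3 and 101 in BafA1 NPC. Control NPC lay below hESC (-0.27 ± 0.09, adjusted p = 0.0183) and overlapped BafA1 NPC. MAD2L1 was no longer called on leaving out hESC replicate 2 (adjusted p = 0.0545), hESC replicate 3 (0.073) or control replicate 1 (0.0705), nor with library size alone (-0.16, adjusted p = 0.105) or by limma on log2(FPKM + 1) (-0.20, 0.1002). In BafA1 against control NPC MAD2L1 was called lower with library size alone (-0.30, adjusted p = 0.0121) and by limma on log2(FPKM + 1) (-0.30, adjusted p = 0.0342). That MAD2L1 difference was -0.03 (adjusted p = 0.804) with GC and length trends removed. TTK, which encodes the checkpoint kinase MPS1, was at 91.5, 95.4 and 93 CPM in hESC, 82.5, 88.8 and 104 in control NPC and 70.4, 76.2 and 83.7 in BafA1 NPC. Control NPC overlapped both other groups. In BafA1 against control NPC TTK missed the threshold (-0.26 ± 0.10, adjusted p = 0.054). It was called without control replicate 1 (0.0283) or without BafA1 replicate 3 (0.0375). It was also called with library size alone (-0.39, adjusted p = 0.0054) and with the replicate number as a block (0.0352). By limma on log2(FPKM + 1) it was called too (-0.40, adjusted p = 0.0101). With GC and length trends removed it was -0.12 (adjusted p = 0.222). The TTK difference between BafA1 NPC and hESC (-0.28 ± 0.10, adjusted p = 0.0217) was not called without hESC replicate 2 or 3 or BafA1 replicate 1 or 2.

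**Figure D2:**
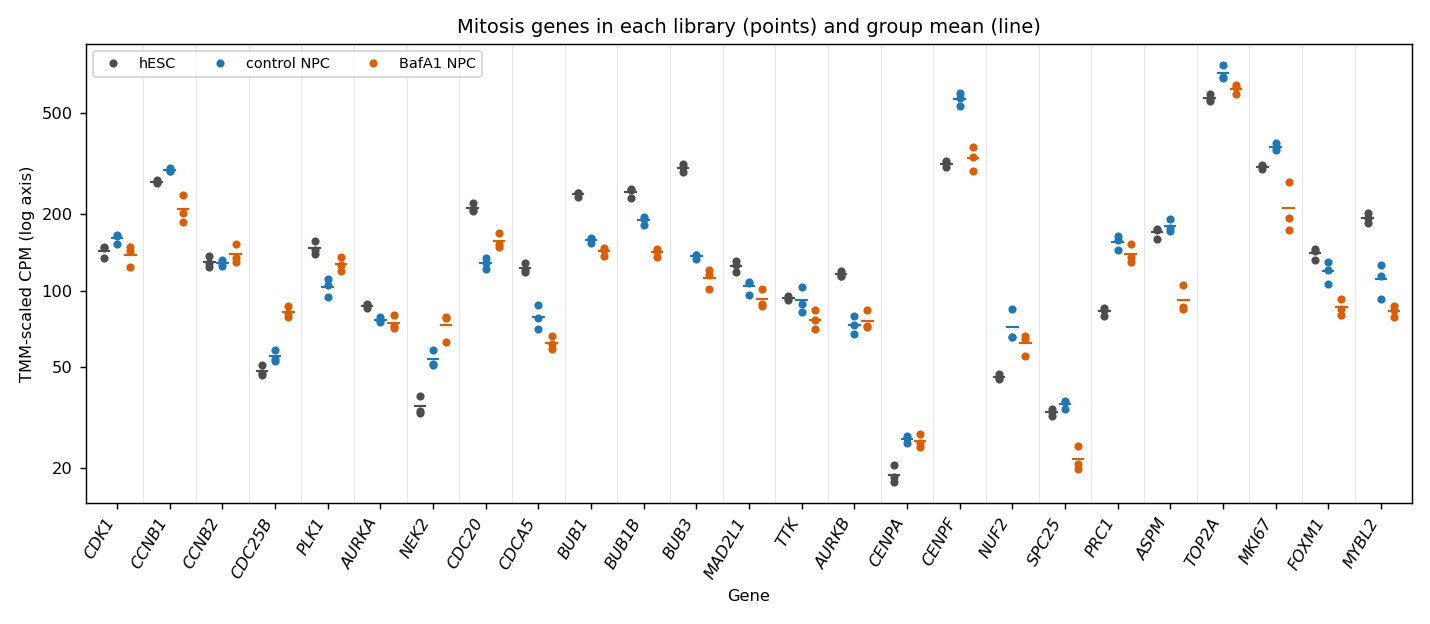
TMM-scaled CPM (log axis) of 25 members in each library (points) with the group mean (line), for hESC, control NPC and BafA1 NPC. CDC25B and NEK2 are highest in BafA1 NPC, ASPM, MKI67 and SPC25 lowest there, CENPF highest in control NPC and BUB3 highest in hESC.

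The chromosomal passenger complex, which corrects wrong attachments, had 0 of 4 members called with BafA1 by edgeR or by DESeq2, 1 lower at an unadjusted edgeR p under 0.05, and 1 lower by limma on FPKM. After removal of GC and length trends edgeR called 2 of 4 lower with BafA1 (23.2% of all genes). These were INCENP (-0.27, adjusted p = 0.00898) and BIRC5 (-0.28, adjusted p = 0.0139). AURKB, its kinase, was at 120, 114 and 114 CPM in hESC, 79.6, 72.8 and 67.6 in control NPC and 72.7, 83.5 and 71.5 in BafA1 NPC. Both NPC groups overlapped, and both lay below hESC (control NPC -0.66 ± 0.09, adjusted p = 3.81e-05). INCENP, the scaffold, was also called lower over the differentiation (-0.26 ± 0.10, adjusted p = 0.0348), CDCA8, which encodes borealin, was called higher (0.25 ± 0.09, adjusted p = 0.0233), and BIRC5, which encodes survivin, was not called (-0.18 ± 0.10). The INCENP value was -0.06 (adjusted p = 0.468) with GC and length trends removed, -0.08 (0.567) by limma on log2(FPKM + 1) and -0.16 (0.229) with library size alone. The INCENP call was absent without hESC replicate 1 or 3 or control replicate 2 or 3, and that of CDCA8 without any 1 hESC library, without control replicate 1 or with DESeq2 size factors (0.21, adjusted p = 0.0556).

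Of the centromere and kinetochore genes 5 of 7 rose over the differentiation (33.0% of all genes), and 3 of 7 fell with BafA1 (20.7%). With GC and length trends removed, 4 of 7 rose over the differentiation (30.3% of all genes), CENPF by 0.39 and NUF2 by 0.29. By that fit 2 of 7 fell (36.6% of all genes), CENPE (-0.29, adjusted p = 0.0161) and SPC25 (-0.25, adjusted p = 0.0497). CENPF (chr1:214603195-214664571), which encodes a large protein of the outer kinetochore, was at 324, 307 and 321 CPM in hESC, 573, 534 and 600 in control NPC and 369, 335 and 297 in BafA1 NPC. Every control NPC library was above every other library (0.84 ± 0.10, adjusted p = 1.04e-05 over hESC, and -0.77 ± 0.10, adjusted p = 0.000114 for BafA1), and BafA1 NPC overlapped hESC (0.07 ± 0.10). CENPE, which encodes the kinetochore kinesin, fell with BafA1 from 157 ± 19.4 to 106 ± 3.58 CPM (-0.57 ± 0.09, adjusted p = 0.000563).

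The NDC80 complex, which binds microtubules, has 4 subunits, and they did not move alike. SPC25 was at 34.2, 33 and 32.1 CPM in hESC, 36.2, 36.8 and 33.9 in control NPC and 20.8, 24.3 and 19.7 in BafA1 NPC. Its BafA1 libraries lay below all others (-0.72 ± 0.09, adjusted p = 0.000129), while hESC and control NPC overlapped. NUF2 was at 46.7, 45.3 and 44.7 CPM in hESC, 65.7, 65.4 and 84.9 in control NPC and 55.4, 66.4 and 64.5 in BafA1 NPC. NUF2 rose over the differentiation (0.66 ± 0.11, adjusted p = 0.000231), as did NDC80 (0.39 ± 0.11) and SPC24 (0.37 ± 0.10), and none of these 3 was called with BafA1 on the TMM scale. With library size alone NDC80 (-0.39) and NUF2 (-0.35) were called lower with BafA1, and SPC24 was with GC and length trends removed (-0.20). By that last fit NDC80 (-0.22, adjusted p = 0.0539) and NUF2 (-0.18, 0.0902) were not called. The NDC80 rise was 0.05 (adjusted p = 0.63) with GC and length trends removed. CENPA, the histone that marks centromeres, was at 18.3, 17.6 and 20.5 CPM in hESC, 26.7, 26.2 and 25.1 in control NPC and 24.1, 27.2 and 25.1 in BafA1 NPC. It rose over the differentiation (0.47 ± 0.09, adjusted p = 0.000716), and the NPC groups overlapped.

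Of the genes of the spindle, the midzone and cytokinesis, 6 of 8 were called lower with BafA1 (20.7% of all genes). With GC and length trends removed, 4 of 8 were called lower with BafA1 (23.2%). ASPM (chr1:197084127-197146669), which encodes a spindle pole protein that in neural progenitors is known for keeping divisions symmetric, was at 160, 174 and 175 CPM in hESC, 176, 172 and 192 in control NPC and 105, 86.3 and 84.7 in BafA1 NPC. The BafA1 libraries lay far below all others (-0.97 ± 0.10, adjusted p = 3.32e-05), and hESC overlapped control NPC. With GC and length trends removed ASPM was called lower over the differentiation (-0.42, adjusted p = 0.000403). ECT2, which encodes the exchange factor that starts the contractile ring, fell (-0.53 ± 0.08, adjusted p = 0.000412), as did DLGAP5, a kinetochore fibre protein (-0.48 ± 0.08, adjusted p = 0.000934). NUSAP1, HMMR and ANLN fell by 0.34 ± 0.08, 0.30 ± 0.08 and 0.24 ± 0.08. ANLN was not called without control replicate 1, 2 or 3 or BafA1 replicate 1, nor, like HMMR, with GC and length trends removed. Over the differentiation ANLN (0.41 ± 0.08) and NUSAP1 (0.31 ± 0.08) rose, both short of a call with those trends removed, while HMMR (-0.35 ± 0.08) and ECT2 (-0.22 ± 0.08) fell. The ECT2 fall was -0.12 (adjusted p = 0.246) with library size alone and -0.13 (0.247) by limma on log2(FPKM + 1), and was not called without hESC replicate 2 or 3 or control replicate 1 or 2.

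PRC1, which bundles the microtubules of the midzone, was at 84, 79.6 and 85.2 CPM in hESC, 158, 144 and 165 in control NPC and 130, 152 and 136 in BafA1 NPC. It rose over the differentiation (0.91 ± 0.09, adjusted p = 2.15e-06), the largest rise of any member, and the NPC groups overlapped. PRC1 was called lower with BafA1 with library size alone (-0.29, adjusted p = 0.0173) and by limma on log2(FPKM + 1) (-0.30, adjusted p = 0.00628). With GC and length trends removed PRC1 was at -0.13 with BafA1 (adjusted p = 0.222). TPX2, which activates AURKA on the spindle, was called in no comparison on the TMM scale, at 220, 217 and 210 CPM on average in hESC, control NPC and BafA1 NPC.

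MKI67 encodes the Ki-67 antigen of dividing cells, and TOP2A the topoisomerase that untangles chromosomes. MKI67 was at 311, 311 and 303 CPM in hESC, 382, 358 and 368 in control NPC and 268, 194 and 174 in BafA1 NPC. BafA1 libraries were below all others, with replicate 1 well above the other two (-0.80 ± 0.13, adjusted p = 0.000699). TOP2A was at 562, 569 and 594 CPM in hESC, 698, 691 and 777 in control NPC and 595, 633 and 646 in BafA1 NPC. It was called higher in control NPC than in hESC (0.33 ± 0.09, adjusted p = 0.0056), a change that turned to -0.02 with GC and length trends removed, and all its BafA1 libraries lay below all control libraries. That difference missed the threshold with edgeR (-0.21 ± 0.09, adjusted p = 0.0752), was called by DESeq2 (-0.20, adjusted p = 0.0242), limma on log2(FPKM + 1) (-0.36, adjusted p = 0.00462) and edgeR with library size alone (-0.34, adjusted p = 0.00578), and was -0.06 (adjusted p = 0.573) with GC and length trends removed.

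Both transcription factors that drive late cell-cycle genes fell at both steps. MYBL2, which encodes B-MYB, was at 203, 193 and 184 CPM in hESC, 127, 114 and 92.4 in control NPC and 83.7, 86.5 and 78.3 in BafA1 NPC. The groups did not overlap (-0.80 ± 0.11, adjusted p = 4.18e-05, and -0.42 ± 0.11, adjusted p = 0.00881). FOXM1 was at 143, 146 and 132 CPM in hESC, 130, 121 and 106 in control NPC and 92.5, 84.7 and 80 in BafA1 NPC. Its groups did not overlap either (-0.24 ± 0.09, adjusted p = 0.0418, and -0.47 ± 0.09, adjusted p = 0.00214). FOXM1 overlaps RHNO1, whose counts were 45.6% of its own, and its fall over the differentiation was -0.15 (adjusted p = 0.107) with GC and length trends removed, -0.14 (0.276) with library size alone and -0.18 (0.175) by limma on log2(FPKM + 1). It was not called either without hESC replicate 1 or 2 or control replicate 2 or 3.

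Other genes of the same machinery, in 9 lists of 126 genes that leave out the members, moved mostly down with BafA1. Of the 126, 77 were called lower (61.1%, against 20.7% of all genes) and 5 higher (3.97%, against 20.8%), with a median of -0.35. Over the differentiation 35 were called lower (27.8%, against 31.6%) and 45 higher (35.7%, against 33.0%), near the shares of all genes, with a median of 0.07. After removal of GC and length trends, 73 were lower (23.2% of all genes) and 10 higher (21.1%) with BafA1. Over the differentiation the majority then turned, with 60 lower (36.6% of all genes) and 29 higher (30.3%) and a median of -0.16. The majority among all genes turned the same way. The outer kinetochore list had 14 of 17 lower, among them SKA3 (-1.03 ± 0.08), MIS12 (-0.90 ± 0.09) and ZW10 (-0.76 ± 0.08). Of the 17 genes of the inner centromere, 10 were lower, among them CENPI (-1.15 ± 0.09), CENPU (-0.89 ± 0.09) and CENPN (-0.82 ± 0.10), and CENPH was called higher (0.30), with overlapping groups and no call with library size alone (0.16, adjusted p = 0.1902). Together with SPC25, CENPE and CENPF these are genes of the platform on which chromosomes attach to the spindle.

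Cohesin genes were lower in 6 of 12 cases. ESCO2, the acetyltransferase that establishes cohesion in S phase, had the largest fall of any gene in these 9 lists, from 18.9 ± 2.6 to 5.88 ± 1.2 CPM (-1.69 ± 0.15, adjusted p = 2.01e-05), and STAG1 (-0.90 ± 0.08) and PDS5B (-0.50 ± 0.07) followed. Condensin genes were lower in 6 of 8 cases, with NCAPH (-0.70 ± 0.10), SMC2 (-0.59 ± 0.07) and NCAPG (-0.52 ± 0.07). Mitotic kinesins were lower in 8 of 12, among them KIF18B (-0.64 ± 0.10), KIF20B (-0.57 ± 0.08), KIF15 (-0.55 ± 0.09) and KIF11 (-0.41 ± 0.09), and 6 of 12 were higher in control NPC than in hESC (5 with GC and length trends removed). Centrosome and cytokinesis genes were lower with BafA1 in 9 of 14, among them CEP192 (-0.76 ± 0.09), CPAP (-0.74 ± 0.07) and PLK4 (-0.67 ± 0.08), and higher over the differentiation in 11 of 14 (6 with GC and length trends removed), with CKAP2 in front (1.00 ± 0.08).

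Among the APC/C genes 8 of 17 were lower and 2 higher with BafA1. FBXO5, which encodes the APC/C inhibitor EMI1, fell by 0.67 ± 0.09 on the log2 scale, and ANAPC7 (-0.58 ± 0.09) and CDC27 (-0.48 ± 0.08) are subunits. The other activator of the APC/C, FZR1, did not pass (0.02 ± 0.09). UBE2S, the enzyme that extends ubiquitin chains after UBE2C, and ANAPC16, a subunit, were the 2 called higher (0.39, adjusted p = 0.0249, and 0.25, adjusted p = 0.0443). The UBE2S groups overlapped, and neither was called with library size alone (0.26, adjusted p = 0.082, and 0.12, adjusted p = 0.296). In the list of entry and exit switches 8 of 13 fell and 2 rose. WEE1, the kinase that inhibits CDK1 and so opposes CDC25B, rose with BafA1 from 52.7 ± 2.9 to 73.1 ± 7.5 CPM (0.47 ± 0.09, adjusted p = 0.00136), after a level of 99.1 ± 1.9 in hESC. PKMYT1, the related inhibitory kinase, fell over the differentiation (-1.22 ± 0.15). Regulators of the DREAM and MuvB complexes were lower in 8 of 16, with TFDP1 (-0.86 ± 0.11), E2F4 (-0.85 ± 0.10) and E2F7 (-0.79 ± 0.10). CDKN1A, which encodes the CDK inhibitor p21, rose from 7.14 ± 1.5 CPM in hESC to 119 ± 19 in control NPC (4.06 ± 0.19, adjusted p = 3.69e-09) and was at 138 ± 25 in BafA1 NPC, which was not called (0.21 ± 0.16, adjusted p = 0.311).

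DNA replication genes, which act before mitosis, were set beside the members. Of 41, 32 were called lower (20.7% of all genes) and 1 higher (20.8%) with BafA1. Their median was -0.71, against -0.22 for the members. PCNA, the sliding clamp, was at 274 ± 20 CPM in control NPC and 108 ± 16 in BafA1 NPC (-1.35 ± 0.11, adjusted p = 1.22e-05), and POLA1, the catalytic subunit of DNA polymerase alpha, also fell (-0.82 ± 0.08). Summed, the 41 genes ran from 5061 to 5457 CPM in hESC, from 3948 to 4839 in control NPC and from 2732 to 3087 in BafA1 NPC. These lists are descriptions by count and median, and no test compared them with the members.

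**Figure D3:**
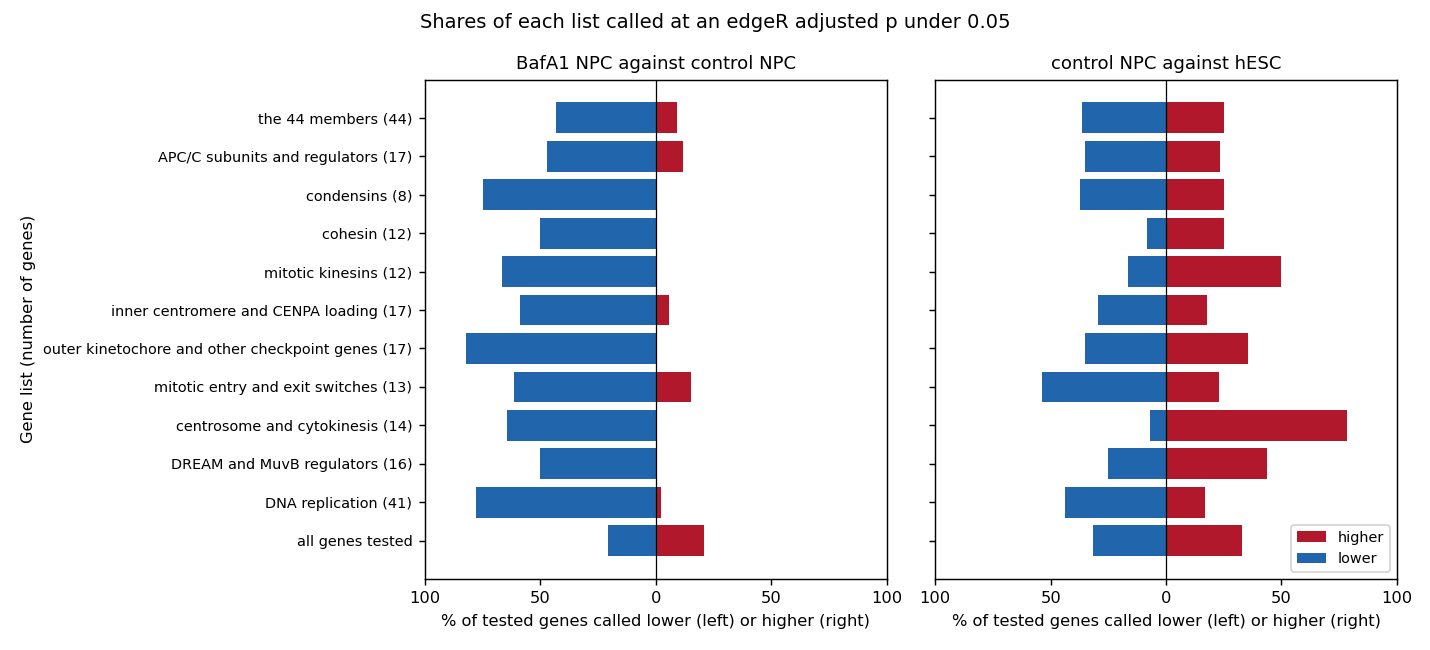
Percent of each list's genes called lower (blue, to the left) and higher (red, to the right) at an edgeR adjusted p under 0.05, for the 44 members, 9 lists of other mitosis genes, DNA replication genes and all genes tested. With BafA1 (left) every list has more lower than higher calls, and all genes tested have about as many of each.

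Levels of related members were set against each other per length, as ratios of FPKM (counts scaled to transcript length and library total) within each library, for pairs chosen after their values were seen and therefore without a test. CCNB1 to CCNB2 ran from 1.43 to 1.61 in hESC, from 1.64 to 1.79 in control NPC and from 1.05 to 1.14 in BafA1 NPC. The balance of the B-type cyclins thus stood closest to even in every BafA1 library. CDC25B to CDC25C ran from 0.69 to 0.79 in hESC, from 0.77 to 0.88 in control NPC and from 1.46 to 2.23 in BafA1 NPC, with CDC25B above CDC25C in the 3 BafA1 libraries and below it in the other 6. This ratio carries the uncertainty of CDC25C, whose counts cannot be told apart from those of the overlapping FAM53C where strand was not used. SPC25 to SPC24, which pair within the NDC80 complex, ran from 1.68 to 1.79 in hESC, from 1.31 to 1.47 in control NPC and from 0.93 to 0.99 in BafA1 NPC. CDC20 to BUB3 was 1.98 to 2.09, 2.40 to 2.55 and 3.18 to 3.77 in the same order. AURKA to AURKB was 0.41 to 0.42 in hESC and overlapped between control NPC (0.54 to 0.62) and BafA1 NPC (0.53 to 0.54).

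**Figure D4:**
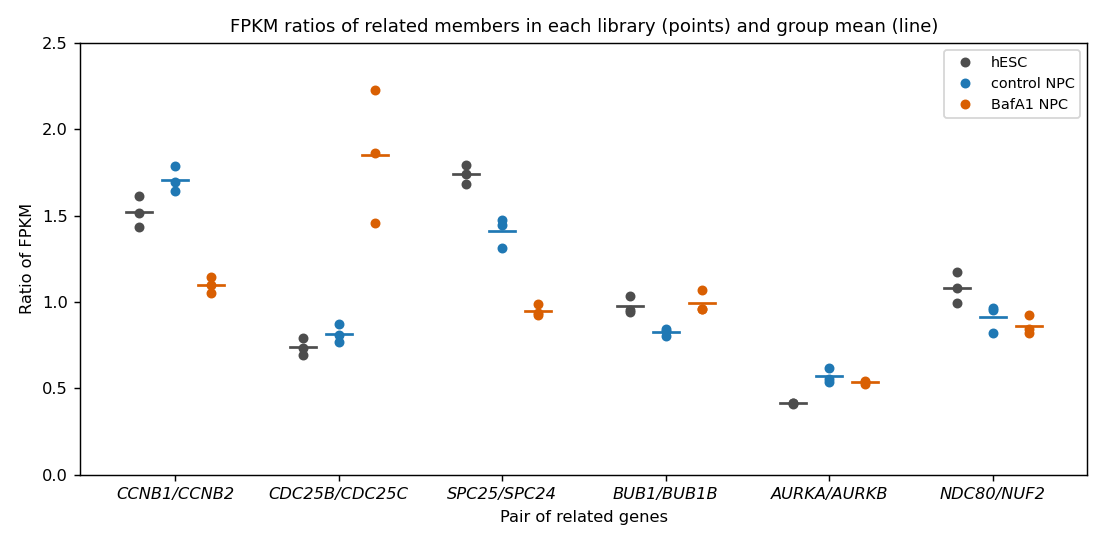
Ratio of FPKM for 6 pairs of related members in each library (points) with the group mean (line). CCNB1/CCNB2 and SPC25/SPC24 are lowest in BafA1 NPC, CDC25B/CDC25C is highest there, and AURKA/AURKB is lowest in hESC.

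Members with long transcripts, by the longest annotated transcript of each gene, had lower values with BafA1 than members with short ones. Across the 44 members the Spearman correlation of log2 fold change with transcript length was -0.44, and with GC content 0.40, where all 17489 genes with a length had -0.12 and 0.21. Genes are not independent replicates, so these are descriptions. Of the 11 longest members, 4135 to 12678 bases, 8 were called lower and 1 higher, with a median of -0.53. The one that rose was PLK1. Its 4135 bases are those of its longest annotated transcript, which need not be the one expressed here. Of the 11 shortest, 914 to 2169 bases, 3 were called lower and 2 higher, with a median of -0.03. With GC and length trends of each library removed the correlation with length was -0.21 and the medians were -0.39 and -0.15, and ASPM (-0.83), MKI67 (-0.79) and CENPF (-0.63) still had low values. SPC25, one of the shortest, was at -0.74 by that fit.

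**Figure D5:**
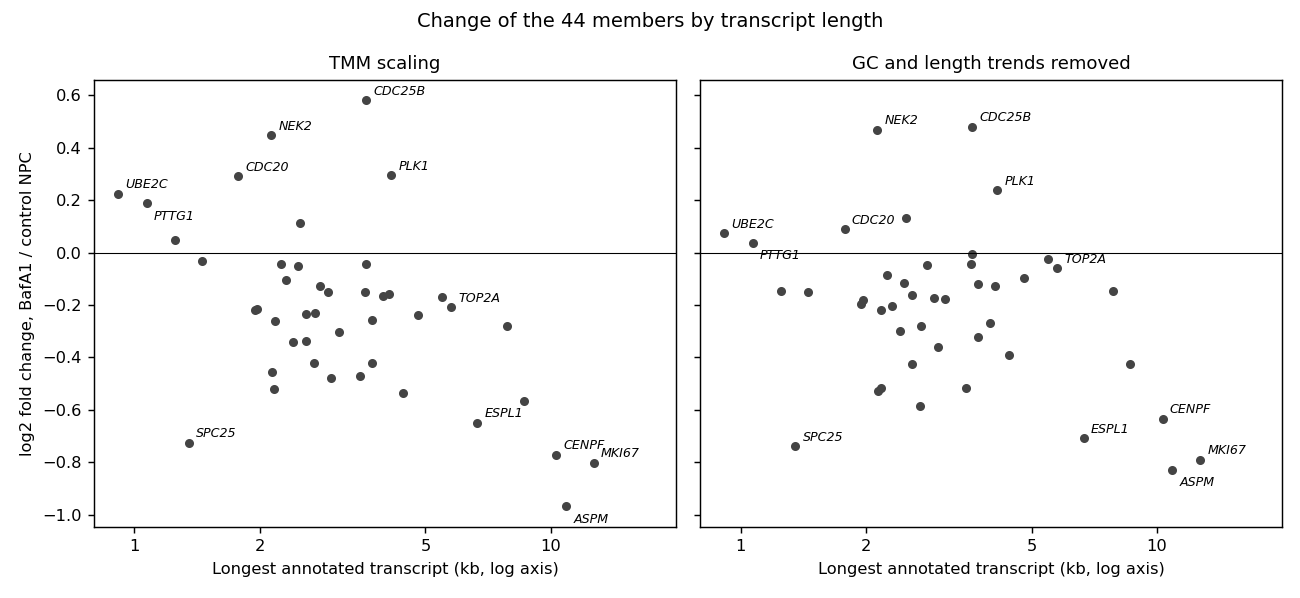
log2 fold change of each of the 44 members, BafA1 against control NPC, by the length of its longest annotated transcript in kb (log axis), with TMM scaling (left) and with GC and length trends removed (right). ASPM, MKI67, CENPF and ESPL1 are low at the long end and SPC25 at the short end in both panels, while CDC20, UBE2C and PTTG1 move towards 0 on the right.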

How the data were processed

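The authors deposited whole-number read counts per gene for the 9 libraries and FPKM values per gene, per the file headers. Per the labels' protocols, the libraries came from a stranded mRNA kit. Per the submitters' processing notes, Trimmomatic trimmed the reads and the build was GRCh38. Which aligner and counter were used, and whether counting used strand, was not stated there.

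Counts were tested with edgeR 4.0.16 in R 4.3.3 (glmQLFit, glmQLFTest, two-sided) after filterByExpr (20685 genes) and TMM scaling, with 1 term per group over all 9 libraries and Benjamini-Hochberg adjustment over all genes tested. A gene was called at an adjusted p under 0.05. Values are TMM-scaled CPM, and changes are log2 fold changes ± SE. Before TMM scaling, a count of 1 corresponded to 0.0143 to 0.0232 CPM. DESeq2 1.42.0, limma 3.58.1 on log2(FPKM + 1) and other settings were alternatives, and the test was checked on simulated data. GC content and length came from the longest GENCODE v29 transcript of a gene, and gene coordinates and promoters from RefSeq (GRCh38.p14). Of the 44 members, 18 overlap another annotated gene, and for 5 of them (CCNA2, CDC25C, ANLN, FOXM1 and CDCA3) that gene had over 5% of their counts. Reads of overlapping genes and of pseudogene copies may be split between them.

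Members with values in every library were the 4 largest called changes in each direction of each comparison and a fixed set of core genes. From each further list up to 3 genes with the smallest adjusted p in a comparison were named, with WEE1, CDC25A, KIF11, FZR1, CDKN1A and PCNA; some genes that this rule names are not reported here. CENPH, UBE2S, ANAPC16 and CDT1, and the ratios of pairs, were chosen after their values were seen. The members and lists were chosen with earlier results of these data known. Deviations from the group means of hESC and control libraries with the same replicate number correlated at 0.21, 0.106 and 0.264. With unlike numbers the values ran from -0.271 to 0.0466. No label says that a number marks a shared culture, so the main fit left the numbers out. The replicate number as a block was an alternative setting. Between replicates of a group the chi-square per degree of freedom was 11.3 to 75.4, so no library was a copy of another.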

Additional observations from a re-analysis of the deposited data

How the results depend on the processing

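Of the 23 members called in BafA1 against control NPC, 15 kept their call and direction in every alternative tried, as did 17 of 27 in control NPC against hESC and 25 of 31 in BafA1 NPC against hESC. With limma on FPKM, plus 1 or plus 0.1, 1 member was higher (8.03% and 8.09% of all genes) and 32 were lower (16.8% with either) in BafA1 than in control NPC, and with library size alone 2 were higher and 30 lower. Leaving out 1 library at a time gave 2 to 6 higher and 16 to 21 lower, where 15.3% to 20.9% of all genes were higher and 15.5% to 20.2% lower. The cause of these differences was not tested.

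With the replicate block, 4 members were higher and 20 lower in BafA1 than in control NPC, where 4112 and 4130 of all 20685 genes were. In control NPC against hESC 11 were higher and 16 lower, where 6694 and 6422 of all genes were. In BafA1 NPC against hESC 6 were higher and 25 lower, where 7197 and 7098 of all genes were. In control NPC against hESC the block added PTTG1 and lost AURKA. Libraries of BafA1 and control NPC with the same number correlated at 0.0898, 0.0685 and 0.122, and with unlike numbers at -0.198 to 0.126. Those of BafA1 NPC and hESC with the same number correlated at -0.112, -0.162 and 0.236, and with unlike numbers at -0.169 to 0.289. Whether the numbers mark shared cultures cannot be told from these values.

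The only member called in the main fit whose estimate changed sign in any alternative was TOP2A in control NPC against hESC. Some members not called in the main fit were called with the reversed sign by edgeR with GC and length trends removed. These were CDK1 (adjusted p = 0.0103), CENPE (0.0161), SPC25 (0.0497) and ASPM (0.000403) in control NPC against hESC, and CENPF (0.0279) in BafA1 NPC against hESC. With library size alone, estimates that changed sign in BafA1 against control NPC were CCNB2 -0.0164, AURKB -0.0782. With library size alone, estimates that changed sign in control NPC against hESC were CCNB2 0.0926, CDC25C 0.0480, TTK 0.0789, TPX2 0.0813, DLGAP5 0.0912. With GC and length trends removed, estimates that changed sign in BafA1 against control NPC were AURKB -0.15. With GC and length trends removed, estimates that changed sign in control NPC against hESC were CDK1 -0.20, CCNB1 -0.11, SGO1 -0.19, CENPE -0.29, SPC25 -0.25, ASPM -0.42, TOP2A -0.0206, MKI67 -0.0567. With GC and length trends removed, estimates that changed sign in BafA1 NPC against hESC were CCNB2 -0.10, CENPF -0.24, NDC80 -0.17, ANLN -0.0129, TOP2A -0.0803. With the replicate block and those trends removed, estimates that changed sign in BafA1 against control NPC were AURKB -0.15. With the replicate block and those trends removed, estimates that changed sign in control NPC against hESC were CDK1 -0.20, CCNB1 -0.11, SGO1 -0.19, CENPE -0.29, SPC25 -0.26, ASPM -0.42, TOP2A -0.0209, MKI67 -0.0570. With the replicate block and those trends removed, estimates that changed sign in BafA1 NPC against hESC were CCNB2 -0.11, CENPF -0.24, NDC80 -0.17, ANLN -0.0144, TOP2A -0.0815. With limma on log2(FPKM + 1), estimates that changed sign in BafA1 against control NPC were CCNB2 -0.0401, PTTG1 -0.00602, AURKB -0.0938. With limma on log2(FPKM + 1), estimates that changed sign in control NPC against hESC were CCNB2 0.0477, CDC25C 0.0159, TTK 0.0196, TPX2 0.0372, DLGAP5 0.0420. With limma on log2(FPKM + 1), estimates that changed sign in BafA1 NPC against hESC were CENPF -0.0310, CDCA3 0.0252. With limma on log2(FPKM + 0.1), estimates that changed sign in BafA1 against control NPC were CCNB2 -0.0406, PTTG1 -0.00618, AURKB -0.0954. With limma on log2(FPKM + 0.1), estimates that changed sign in control NPC against hESC were CCNB2 0.0483, CDC25C 0.0167, TTK 0.0200, TPX2 0.0378, DLGAP5 0.0427. With limma on log2(FPKM + 0.1), estimates that changed sign in BafA1 NPC against hESC were CENPF -0.0322, CDCA3 0.0267. Leaving out 1 library at a time, values that crossed 0 in BafA1 against control NPC were AURKB -0.0234 to 0.11, CDCA8 -0.13 to 0.0183, CENPA -0.0802 to 0.0179, TPX2 -0.0815 to 0.00190. Leaving out 1 library at a time, values that crossed 0 in control NPC against hESC were CCNB2 -0.0457 to 0.0267, TTK -0.12 to 0.0457, TPX2 -0.0686 to 0.0141, DLGAP5 -0.0482 to 0.0337, CDCA3 -0.0288 to 0.11. Leaving out 1 library at a time, values that crossed 0 in BafA1 NPC against hESC were CDK1 -0.10 to 0.0205, PTTG1 -0.27 to 0.00535, CENPF -0.0124 to 0.15.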

Other observations

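CDT1, which loads the replicative helicase in G1 phase and is known to be destroyed in S phase, was the 1 of 41 DNA replication genes called higher in BafA1 than in control NPC. It averaged 82.3 ± 10.1 CPM (SD, n = 3) in BafA1 NPC and 48.9 ± 3.17 in control NPC (edgeR log2 fold change 0.75 ± 0.11, adjusted p = 0.000226), and was chosen after its values were seen. Over the differentiation it had fallen (-0.77 ± 0.11, adjusted p = 4.44e-05), so that CDT1 in BafA1 NPC overlapped hESC (-0.02 ± 0.10). MCM5, a subunit of that helicase, fell at both steps (-1.54 ± 0.12 and -0.63 ± 0.12).

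Several kinetochore and regulator genes outside the 44 also changed over the differentiation. KNL1, the scaffold of the outer kinetochore, rose by 0.88 ± 0.10 on the log2 scale and SKA2 by 0.81 ± 0.08, while TRIP13, the ATPase that recycles MAD2, fell by 0.93 ± 0.09. In BafA1 against control NPC these 3 were called lower, at -0.68 ± 0.10, -0.35 ± 0.08 and -0.71 ± 0.09. LIN54, the DNA-binding subunit of MuvB, rose over the differentiation (1.18 ± 0.09) and was not called with BafA1 (0.08 ± 0.09).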
